A study of Saccharomyces cerevisiae with 24 samples.

Results

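Ergosterol is the main sterol of yeast membranes, and its synthesis ends with a series of enzymes of the endoplasmic reticulum that reshape the sterol rings and the side chain. Many enzymes of these late steps can be deleted in haploid yeast, which then carries precursor sterols in place of ergosterol. Deletion strains of 7 genes of these steps were followed in a pooled screen: the sterol reductase gene ERG24, the side-chain methyltransferase gene ERG6, the ring isomerase gene ERG2, the scaffold gene ERG28, the ring desaturase gene ERG3, the side-chain desaturase gene ERG5 and ERG4, which encodes the reductase of the last step. These strains were found by the systematic gene names YNL280C, YML008C, YMR202W, YER044C, YLR056W, YMR015C and YGL012W in the probe annotation. They are 7 of 5526 strains with a barcode probe.

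The pool held haploid MATα deletion strains of the BY4742 background, in which each strain lacks 1 gene and carries a molecular barcode pair, the uptag and the downtag. It was transformed with pYX223, the empty vector, or with pYX223-MDM33, a multicopy plasmid that expresses MDM33 from the GAL1/10 promoter. Mdm33 is a protein of the inner mitochondrial membrane, and its overexpression arrests growth, so the screen asked which deletions relieve that arrest. Every transformed pool was plated on 2% glucose for 2 days, where the promoter is repressed, or on 2% galactose for 4 days, where it is induced. Sugar and time on the plate therefore differed together. The 4 groups of plasmid and sugar were each measured in 2 independent experiments, and the barcodes were labelled with Cy3 or Cy5 and hybridized to an array, which gave 24 dye channels. Experiment 2 used both dyes in every group. Experiment 1 used Cy5 for glucose and Cy3 for galactose throughout, and dye and sugar cannot be told apart in it.

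The authors had scaled every channel to nearly the same total, between 147379493 and 147666701 units, so a signal is a share of the hybridized pool and not a number of cells. Signals of different barcodes have no common scale, and each was set against the detection limit of its channel, taken as the 99th percentile of designed probes whose tag carried no label in it. The limit lay between 786 and 3339 units with the MDM33 plasmid on galactose and between 176 and 837 units in the other groups. A strain was called detected where either tag, averaged over dyes, had a ratio of signal to limit above 1. In the group with the MDM33 plasmid on galactose, the median designed probe of the labelled tag gave 69.9 to 2336 units per channel, against 2666 to 14338 units in the other groups, and the experiments were also further apart, with a median absolute difference of 1.68 on the log2 scale against 0.64 to 0.75.

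The 7 strains have 21 barcode probes on the array. Of these, 9 match a designed uptag, 7 a designed downtag, 2 a mutated form of an uptag and 3 a mutated form of a downtag found when the library was sequenced again. ERG5 and ERG6 have uptag probes only. In the channels of their own tag, 13 of 252 probe signals, or 5.16%, were above the limit. In the channels of the other tag, which show the signal without a labelled barcode, 0 of 252 were above it. The ERG4 uptag gave 9 of the 13 signals, the ERG5 uptag gave 3, and 1 came from an ERG2 uptag probe.

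**Figure D1:**
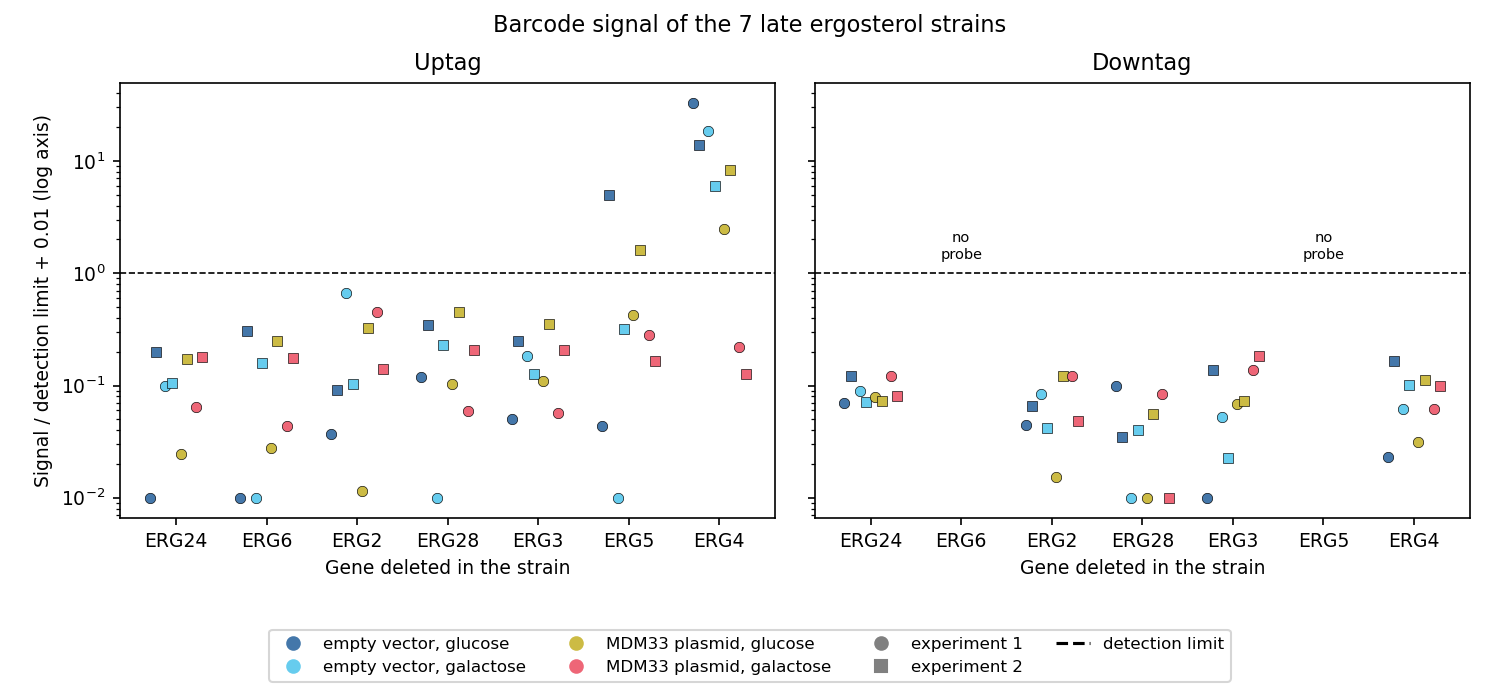
Signal of the 7 strains as a ratio to the detection limit, plus 0.01, on a log axis, for the uptag (left) and the downtag (right). Colours are the 4 groups, circles are experiment 1 and squares experiment 2, and the dashed line is the limit. Only the ERG4 uptag, in 6 of 8 values, and the ERG5 uptag, in 2 of 8, lie above the line.

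Of the 7 strains, 5 were not detected in any group, and only 1 of their 204 probe signals was above the limit. They were those lacking ERG24, ERG6, ERG2, ERG28 or ERG3, each detected in 0 of 8 values, of 4 groups and 2 experiments. Over all 5526 strains, 20.3% were detected in none of the 8 values, and 12% of the 4977 strains with a designed probe. The 17 probes of these 5 strains gave 204 signals in the channels of their own tag with a median of 19.9 units, and in the channels of the other tag the median was 36.8 units. Their abundance on galactose, with or without the MDM33 plasmid, was therefore not measurable, and the screen gives neither a gain nor a loss for them.

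Erg24 is the reductase that follows the removal of the methyl group from lanosterol, and its strain has the most probes, 6. With the empty vector the strain values, which are means over dyes, probes and tags, were 17 and 61 units on glucose and 27 and 31 units on galactose in experiments 1 and 2. With the MDM33 plasmid they were 34 and 33 units on glucose, and galactose gave 134 and 275 units. The mean ratio to the limit over the 8 values was 0.0876, the lowest of the 7 strains, and none of the 6 probes crossed the limit in any channel.

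Erg6 transfers the methyl group to the sterol side chain. Its strain gave 0 and 80 units (glucose) and 0 and 42 units (galactose) with the empty vector. The MDM33 plasmid gave 13 and 42 units on glucose and 114 and 389 units on galactose. The designed uptag probe and the probe for the mutated form were both dark, with highest ratios to the limit of 0.54 and 0.60.

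Erg2 moves a double bond within the sterol ring. Its strain values with the empty vector were 16 and 27 units on glucose and 153 and 22 units on galactose, and with the MDM33 plasmid 3 and 57 units on glucose and 779 and 198 units on galactose. The 779 units came from 1 of its uptag probes, which gave 2941 units in experiment 1, still under the limit of 3339 units in that channel. The same probe gave 583 units on galactose with the empty vector in experiment 1, which is 1.32 times the limit of 443 units, and it did not exceed the limit in experiment 2. Averaged with the other uptag probe the ratio was 0.66, so the strain did not count as detected there.

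Erg28 holds enzymes of the pathway together at the membrane of the endoplasmic reticulum. Its strain values were 52 and 71 units (glucose) and 0 and 55 units (galactose) with the empty vector, and 35 and 80 units (glucose) and 110 and 228 units (galactose) with the MDM33 plasmid. Erg3 introduces a double bond into the sterol ring. Its strain gave 10 and 74 units (glucose) and 43 and 20 units (galactose) with the empty vector, and 62 and 56 units (glucose) and 128 and 380 units (galactose) with the MDM33 plasmid. Both strains stayed under the limit with every probe.

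In all 5 strains the units were highest with the MDM33 plasmid on galactose, from 110 to 779 with a median of 213, and the median was 29.2 to 39.7 in the other groups. The limit, which is measured on barcodes that were not labelled, was also highest in that group, except in the downtag channels of experiment 1. There it was 786 units, against 837 units with the MDM33 plasmid on glucose. Relative to the limit these values remained dark, and the higher units are no measurement of more cells.

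Erg5 introduces the double bond of the sterol side chain, and its strain was detected in part. With the empty vector on glucose its uptag gave 16 units in experiment 1 and 1443 units in experiment 2, and with the MDM33 plasmid on glucose it gave 312 and 622 units. On galactose it gave 0 and 134 units with the empty vector and 911 and 336 units with the MDM33 plasmid. Only the 2 glucose values of experiment 2 were above the limit, by 4.95 times with the empty vector and 1.59 times with the MDM33 plasmid, and no galactose value was.

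The glucose values of experiment 2 for the ERG5 strain also differed between dyes. With the empty vector the signal was 2348 units in Cy3, above the limit of 263 units, and 538 units in Cy5, just under the limit of 543 units. With the MDM33 plasmid it was 257 units in Cy3 and 987 units in Cy5, both above the limit, so the order of the dyes was turned. The mean ratio over the 8 values was 0.97, just under the value of 1 required for a test, and the strain was not tested.

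Erg4 reduces a double bond of the side chain in the step that yields ergosterol. Its strain was the only one of the 7 detected in both experiments in any group. On glucose with the empty vector its uptag gave 16405 units in experiment 1 and 5359 units in experiment 2, which is 33.2 and 13.9 times the limit. On galactose with the empty vector it gave 8275 and 2932 units, 18.7 and 6.03 times the limit. With the MDM33 plasmid on glucose it gave 1850 and 2505 units, 2.46 and 8.35 times the limit. On galactose with the MDM33 plasmid it gave 700 and 280 units, only 0.21 and 0.12 times the limit. The strain was thus measured in 3 of the 4 groups, and not under MDM33 overexpression.

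The downtag of the ERG4 strain was dark throughout. The probe for its designed form gave 0 to 390 units and the probe for a mutated form 0 to 353 units, and 0 of 24 signals were above the limit. Averaged over dyes and both probes, the downtag gave 7 to 186 units. All values of the strain thus rest on its uptag, and the strain values, as means over both tags, were close to 50% of the uptag signal wherever it was detected.

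The array also carries a mismatch control of the ERG4 uptag, in which base 11 of the 20 bases of the barcode is exchanged. In the 9 uptag channels outside the group with the MDM33 plasmid on galactose, this probe gave 0.886 to 13.5% of the signal of the matched probe. It was above the limit in 0 of 12 channels. In the 3 channels with the MDM33 plasmid on galactose, the matched and the mismatch probe gave 0 to 700 and 0 to 843 units, and their ranges overlapped.

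**Figure D2:**
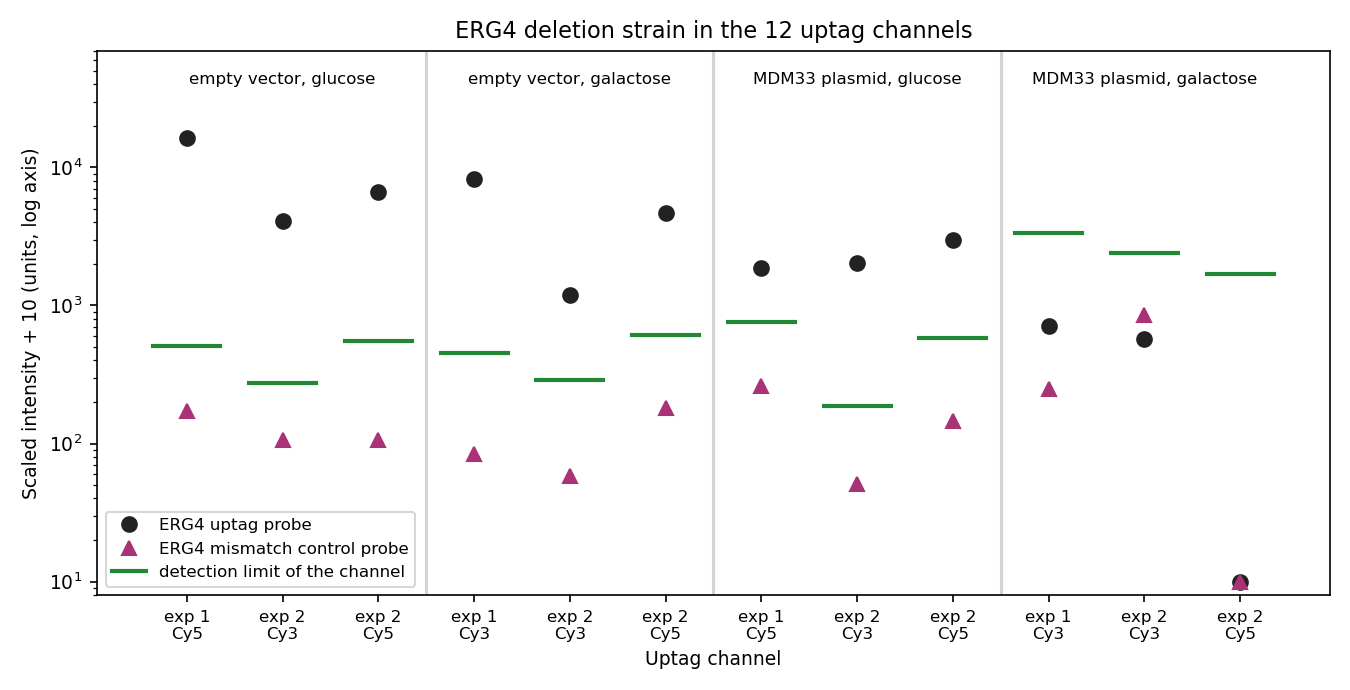
Scaled intensity plus 10 units, on a log axis, of the ERG4 uptag probe (circles) and its mismatch control (triangles) in the 12 uptag channels, with the detection limit of each channel as a bar. The matched probe lies above the limit in all 9 channels of the first 3 groups and below it in the 3 channels with the MDM33 plasmid on galactose.

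The ERG4 uptag differed between dyes in experiment 2. With the empty vector it was 4086 units in Cy3 and 6631 units in Cy5 on glucose and on galactose 1190 and 4675 units. With the MDM33 plasmid it was 2020 and 2990 units on glucose and 561 and 0 units on galactose. Cy5 was the higher dye in the 3 groups with a detected signal.

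Between sugars, the ERG4 uptag with the empty vector had 50.4% of its glucose signal on galactose in experiment 1 and 54.7% in experiment 2. These shares are unlike measures. Experiment 1 sets Cy3 on galactose against Cy5 on glucose, and experiment 2 is a mean over both dyes. In the test across all strains, limma on log2 of the strain value plus 500 units, the difference was -0.80 (standard error 0.85, 95% interval -2.78 to 1.17, adjusted p = 0.9995), and the median over the 4148 tested strains was -0.09. The strain did not pass the test, in which the spread is pooled over the 4 groups, and with the experiments as a block the adjusted p was 0.9995 as well. Of all tested strains, 19.9% had a lower difference. With only the dyes of experiment 1 taken from experiment 2, the difference of the ERG4 strain was -1.34. The difference was -0.09 without experiment 1 and -1.52 without experiment 2 of the empty vector on glucose, and -1.41 and -0.19 without those on galactose. No strain passed the test in this comparison (0% of 4148, with 79 strains at an unadjusted p under 0.05).

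Between plasmids on glucose, where the GAL1/10 promoter is repressed, the ERG4 uptag with the MDM33 plasmid had 11.3% of the signal with the empty vector in experiment 1 and 46.7% in experiment 2. Both values with the MDM33 plasmid were below both with the empty vector, but the share of all strains that separate in this way was not counted. The log2 difference was -1.73 (95% interval -3.71 to 0.25, unadjusted p = 0.0778, adjusted p = 0.99998), with a median of 0.01 over all tested strains. Only 113 strains, or 2.72%, had a lower difference. The strain did not pass the test, and no strain passed this comparison (0% of 4148, with 43 at an unadjusted p under 0.05). The difference lay between -2.45 and -1.01 when 1 experiment of a group was left out, nearest to 0 without experiment 1 of the empty vector on glucose.

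Between plasmids on galactose, where MDM33 is overexpressed, the value with the MDM33 plasmid is only bounded by the limit. The ERG4 uptag with the empty vector had a geometric mean of 4926 units, which is 1.89 times the bound of 2608 units that the limits of both experiments set. With that bound, the signal with the empty vector was at least 1.89-fold that with the MDM33 plasmid, whose measured mean was 443 units. This fold holds only for means over dyes in the deposited scaling. In Cy3 of experiment 2, the 1190 units with the empty vector lay under the limit of 2401 units with the MDM33 plasmid. The fitted difference was -1.93 (95% interval -3.91 to 0.05, unadjusted p = 0.0544, adjusted p = 0.152), and it contains the values under the limit. The median over all tested strains was -1.57, and 41.9% of strains had a lower difference. In this comparison 462 of 4148 strains, or 11.1%, passed the test, 12 of them higher (0.289%) and 450 lower (10.8%), and the ERG4 strain, the only 1 of the 7 ergosterol strains that entered this test, did not. The position of the ERG4 strain moved with the processing. With uptags alone, which carry its signal, its difference was -2.50, and relative to the median of all tested strains it was -1.14, against -0.36 with both tags. Scaled to the 75th percentile of the labelled tag, it was -0.48, and -1.22 relative to the median. With quantile normalization it was -1.18, and -1.04 relative to the median. Other alternatives put the strain above the median. Relative to the median it was 0.21 with an offset of 2000 and 0.17 with log2 values averaged over tags. With the dye of experiment 1 in experiment 2 it was 0.23.

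Between galactose and glucose with the MDM33 plasmid, no fold is given for the ERG4 uptag, since its geometric mean on glucose, 2153 units, lay under the same bound of 2608 units. The fitted difference was -1.0 (95% interval -2.98 to 0.98, adjusted p = 0.419), against a median of -1.87 over all tested strains, and 0% of the strains passed (1547 at an unadjusted p under 0.05). The change between sugars differed between plasmids by -0.20 (standard error 1.20, 95% interval -2.99 to 2.60, adjusted p = 0.953), against a median of -1.63, and 0% passed here as well (767 at an unadjusted p under 0.05). This test of the difference includes the values under the limit too, and its interval spans both directions.

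**Figure D3:**
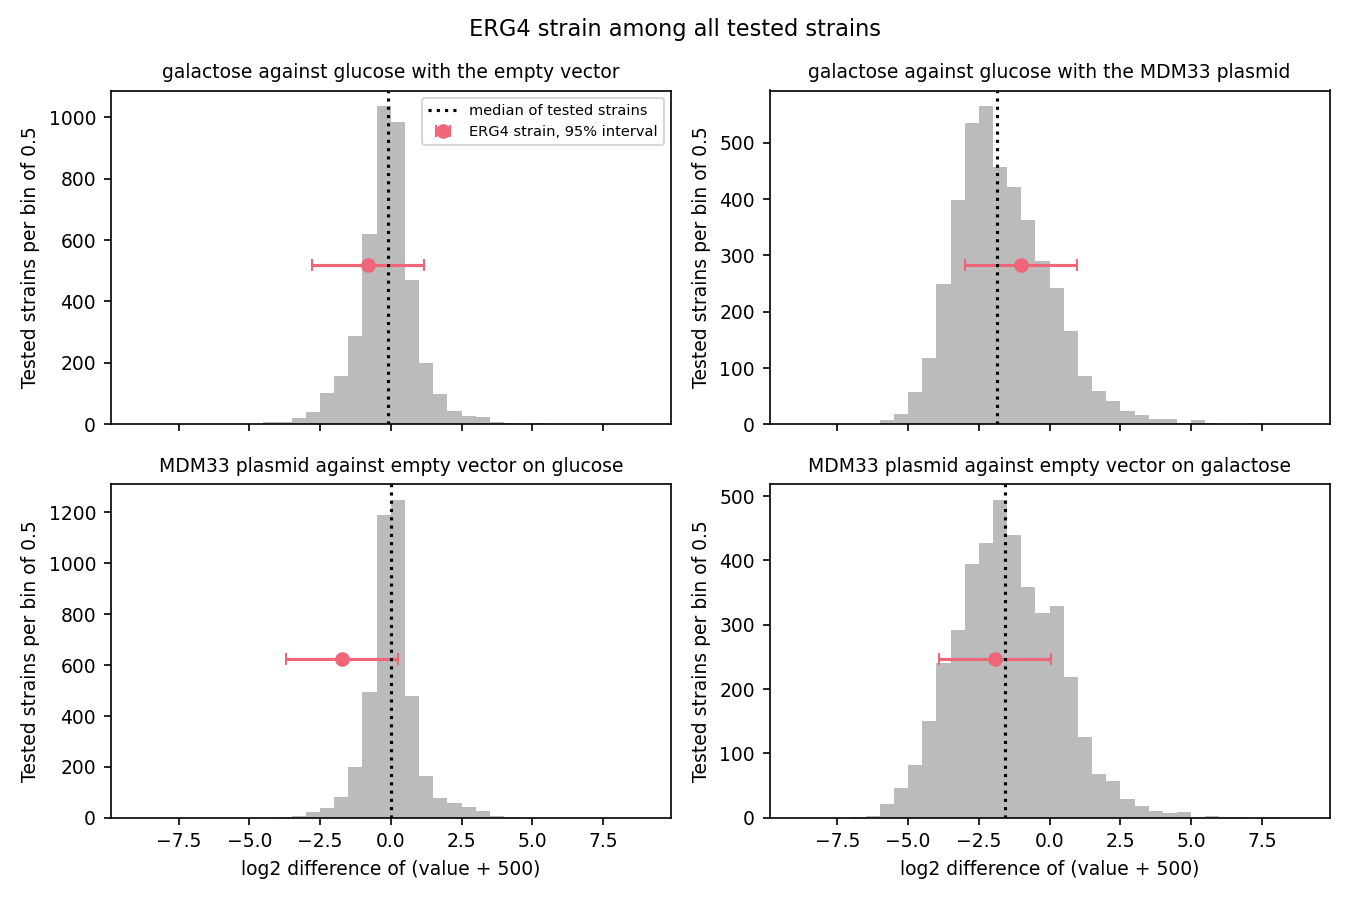
Number of tested strains in bins of 0.5 of the log2 difference of the strain value plus 500, for 4 comparisons over 4148 strains. The red point and bar are the ERG4 strain with its 95% interval, and the dotted line is the median of all tested strains. The ERG4 strain lies in the lower tail between plasmids on glucose and at -0.36 relative to the median between plasmids on galactose.

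Without the filter on dim strains, all 7 strains entered the test. Then 0 of 7 passed in any of the 5 comparisons, and the smallest adjusted p among them was 0.114, for galactose between plasmids. Of all 5526 strains, 13.4% passed between plasmids on galactose, 11.9% between sugars with the MDM33 plasmid and 0% in the other 3 comparisons. The 5 dark strains had no measurable signal to test here.

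The tested strains whose 8 log2 values were most like those of the ERG4 strain lacked AGP2 (YBR132C), a plasma membrane regulator of transport, with a Pearson correlation of 0.96, or MGA2 (YIR033W), a regulator of the fatty acid desaturase gene OLE1, with 0.95. The 8 values share the pools, the channels and the scaling with the ERG4 strain, so the correlation is a description. The AGP2 strain gave 18118 and 4532 units (glucose) and 3851 and 1757 units (galactose) with the empty vector, and 1824 and 2405 units (glucose) and 167 and 236 units (galactose) with the MDM33 plasmid. The MGA2 strain gave 40437 and 6301 units (glucose) and 12895 and 6429 units (galactose) with the empty vector, and 2055 and 667 units (glucose) and 196 and 125 units (galactose) with the MDM33 plasmid.

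Other genes of sterol metabolism were followed as lists for comparison. A further set of genes of the pathway is essential in haploid yeast. On the array, 6 of 14 such genes have a barcode probe: ERG9, ERG1, ERG7, ERG11, ERG25 and ERG27. They encode enzymes from squalene synthase to the demethylation of lanosterol and its products. All 6 were detected in 0 of 8 values. The pool came from a library of non-essential deletions, so strains lacking these 6 genes were not expected in it. Their lack of signal was set in advance and is no likeness to the 5 dark strains of the late steps. The remaining 4 lists hold non-essential enzymes and helpers of the synthesis, enzymes of sterol esters and acetates, regulators and transporters for uptake, and sterol transfer proteins, with 38 strains on the array.

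Of these 38 strains, 5 were never detected, those lacking NSG2, ARV1, SWH1, OSH7 or NPC2. In both experiments on glucose with the empty vector, 31 of the 38 were detected, against 1 of 7 strains of the late steps and 66.5% of all strains. On galactose with the empty vector the counts were 32 of 38 and 1 of 7, against 65.8%. For the MDM33 plasmid the counts were 31 of 38 and 1 of 7 on glucose, against 67.8%, and 23 of 38 and 0 of 7 detected on galactose, against 39.6%.

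**Figure D4:**
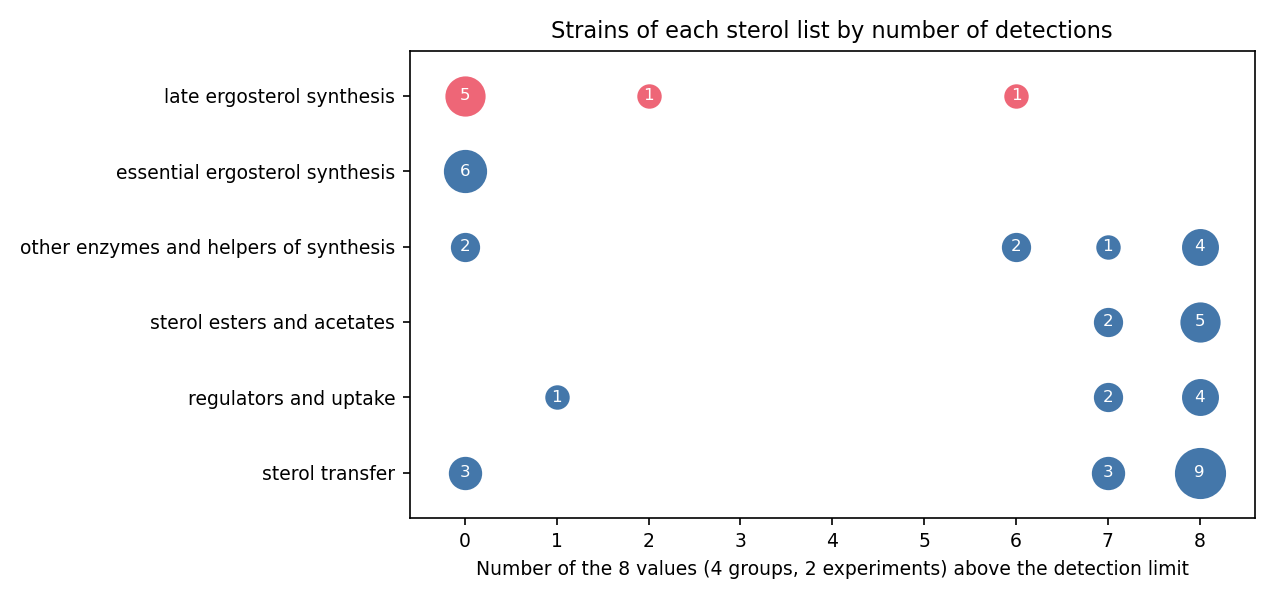
Strains of each sterol list by how many of their 8 values (4 groups, 2 experiments) were above the detection limit. The number in each circle is the number of strains. Of the late ergosterol strains 5 lie at 0, ERG5 at 2 and ERG4 at 6. All 6 essential genes lie at 0, and their deletion strains were not expected in the pool.

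Among the 32 tested strains of the 4 lists, 0 passed the test between plasmids on galactose as higher under MDM33 overexpression and 2 as lower. Over all 4148 tested strains, 0.289% passed as higher and 10.8% as lower. Lower calls were thus not more frequent in these lists than among all tested strains. The median difference was -1.66, against -1.57 over all tested strains. Nsg1 binds the reductase Hmg2 of the early pathway and slows its breakdown. Its strain gave 65754 and 53377 units with the empty vector and 4983 and 1243 units with the MDM33 plasmid on galactose. The difference was -4.27 (standard error 0.88, adjusted p = 0.0394 by limma). Without 1 experiment of the empty vector, or of the MDM33 plasmid on glucose, the call was lost (adjusted p from 0.0728 to 0.184).

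Rox1 represses genes of the response to low oxygen, among them genes of ergosterol synthesis. Its strain gave 12565 and 26777 units with the empty vector and 2456 and 205 units with the MDM33 plasmid on galactose. The difference was -3.71 (standard error 0.92, adjusted p = 0.0476 by limma). With the experiments as a block the call was lost (adjusted p = 0.0556), and it was lost as well without any 1 of 7 of the 8 group values (adjusted p from 0.0526 to 0.205).

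In the 2 lists without a call, the lowest and the highest difference on galactose between plasmids were as follows. Among enzymes of sterol esters and acetates, the strain lacking the steryl ester hydrolase Yeh1 gave 111942 and 24011 units with the empty vector and 4180 and 2118 units with the MDM33 plasmid (-3.91, adjusted p = 0.157 by limma). The strain lacking the sterol deacetylase Say1 gave 3119 and 10426 units and 2544 and 6517 units (-0.44, adjusted p = 0.783), and these values overlapped.

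Among the sterol transfer proteins, the strain lacking Lam6, which sits at membrane contact sites, gave 32470 and 51557 units with the empty vector and 582 and 9939 units with the MDM33 plasmid (-3.62, adjusted p = 0.0699 by limma). The strain lacking Ncr1, the vacuolar relative of the human Niemann-Pick type C protein, gave 48672 and 42373 units with the empty vector and 436427 and 60936 units with the MDM33 plasmid (1.84, adjusted p = 0.241). The experiments with the MDM33 plasmid were far apart, and the strain did not pass the test.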

How the data were processed

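The deposited values are linear spot intensities, which the authors had corrected for background with ArrayVision and scaled so that all channels have the same total; no value is below 0. The pool signal is relative, so a strain can fall in units because others rise. Columns were matched to samples through their names, and 24 further columns of unscaled intensities were not used because their names do not match the sample labels. Of 14767 annotated probes, 26 were not used and 14741 were. Symbols came from RefSeq assembly R64 for 5067 of 5526 strains, and 459 had no match. The annotation names no genome build, so no coordinates are given, and barcode letters were not in the sources used here.

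For each strain, group and experiment, signals were averaged over dyes, then over the probes of a tag, then over tags. Strains with a mean ratio to the detection limit above 1 over the 8 values were tested (4148 strains). The methods name no test. lmFit, contrasts and eBayes of limma were run on log2 of the value plus 500 units, which left 4 degrees of freedom, with p-values adjusted by Benjamini-Hochberg over all tested strains and a threshold of 0.05. With 2 experiments per group the precision is low. In data simulated for 4148 strains, with a change in the MDM33 group of that sugar, the test between plasmids recovered 14% of log2 changes of 3 and 72% of those of 6 on galactose, and 15% and 68% on glucose. Between sugars with the empty vector it recovered 18% and 71% of changes on galactose. The simulation drew every group around the mean of the empty vector on glucose, with the spread of a strain averaged over the groups. It set no lower bound on a value. The wider spread, the lower median and the higher limit with the MDM33 plasmid on galactose were thus not simulated. The shares recovered do not give the power of the test in that group.

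The replicate number marks a set of transformations in the design text, and the deviations of the same number correlated by 0.06 to 0.32 between groups. It was used as a block in an alternative. The other alternatives were offsets of 100 and 2000, other scalings, subtraction of the median of the unlabelled probes, no filter, single tags, other averages of tags, probes and dyes, array weights, another limit, both tags required, and each experiment of a group left out in turn. All 7 strains are named, as are the strains of the other sterol lists that passed a test, or else the lowest and highest of a list between plasmids on galactose, and the 2 strains most like each tested member. The members and lists were chosen with earlier results of these data known. The tools were limma 3.58.1 in R 4.3.3, and pandas 2.3.3, numpy 2.4.6 and matplotlib 3.10.9 in Python 3.11.15.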

Additional observations from a re-analysis of the deposited data

How the results depend on the processing

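ERG4 was the only 1 of the 7 ergosterol strains tested in all alternatives but the one without a filter, and it passed in none of the 5 comparisons in any of them, so that the count with the replicate block was 0 as well. Between sugars with the empty vector its difference was between -1.52 and -0.09 without 1 experiment of a group. Between plasmids on galactose, relative to the median of all strains, it lay between -1.43 and 0.58 in the alternatives other than downtags alone. The ERG4 difference between plasmids on glucose stayed below 0 in all 23 alternatives, from -2.45 to -0.04, with downtags alone, where the ERG4 strain is dark, nearest to 0. Other ERG4 differences turned direction. With the MDM33 plasmid, the difference between sugars was 0.61 when scaled to the 75th percentile of the labelled tag and 0.18 with downtags alone, where the difference between plasmids on galactose was 0.20. The interaction of plasmid and sugar was 0.15 with an offset of 2000, 1.15 with the 75th percentile of the labelled tag, 0.13 with quantile normalization, 0.24 with downtags alone and 0.45 with the dye of experiment 1 alone. Without 1 experiment of a group it was between -0.91 and 0.52, turned without experiment 2 of the empty vector on glucose (0.52) and experiment 1 of the empty vector on galactose (0.41). The cause was not tested.

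When both tags had to be above the limit, 0 in place of 1 ergosterol strain was detected with the MDM33 plasmid on glucose, since the ERG4 downtag is dark. With the limit at the 95th percentile the counts stayed at 1 and 0.

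Over all strains, the 12 higher and 450 lower calls between plasmids on galactose were 0 with array weights, quantile normalization or uptags alone, 3 and 118 with an offset of 100, 12 and 2 with the 75th percentile of all probes and 11 and 0 with that of the labelled tag, where the median of all strains was 0.74 in place of -1.57. They were 10 and 315 with the replicate block. Without 1 experiment of a group they lay between 0 and, without experiment 1 of the MDM33 plasmid on galactose, 254 and 1540. NSG1 lost its call in 12 of 23 alternatives and ROX1 in 17 of 23, with adjusted p from 0.00883 to 0.466 and from 0.00328 to 0.367, and both kept their sign. With 2 experiments a group and a high limit with the MDM33 plasmid on galactose, differences of dim strains were not detectable there.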
